A study of Mus musculus with 16 samples.

Results

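The integrated stress response regulators examined here are 10 genes, *Atf4*, *Atf5*, *Atf3*, *Ddit3*, *Cebpb*, *Cebpg*, *Trib3*, *Chac1*, *Sesn2* and *Ppp1r15a*, taken by symbol from the TPM table and by the same Ensembl identifier from the count table, which lists 54393 genes. All 10 were found, and all 10 passed the filter on low counts that left 13234 genes for testing. RNA-Seq was carried out on mIMCD3, an immortalized mouse line from the inner medullary collecting duct whose genotype is labelled wild type. Cells were polarized on permeable filters for 10 days and then given doxycycline (DOX, 2 µg/mL) or the vehicle DMSO for 3 or 6 days. The 16 libraries fall into 4 groups of 4, named DMSO 3D, DOX 3D, DMSO 6D and DOX 6D, and all of them shared the same medium, which also held gentamicin and amphotericin B. No source says whether the 4 libraries of a group came from separate cultures, so the p-values measure only the spread between these libraries.

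The integrated stress response slows general translation when kinases such as HRI, PKR, PERK and GCN2 phosphorylate the translation factor eIF2α. Translation of *Atf4* mRNA rises at the same time, because upstream reading frames hold it back in unstressed cells, and the ATF4 protein then switches on genes for amino acid supply and for further regulators. Several of those regulators close the loop: CHOP (*Ddit3*) and TRIB3 modulate ATF4 itself, and GADD34 (*Ppp1r15a*) directs a phosphatase to eIF2α. RNA-Seq sees the mRNA of these genes and neither the protein nor the phosphorylation of eIF2α, and it cannot tell fewer cells expressing a gene from less of its mRNA per cell.

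DOX was accompanied by higher mRNA of most of these genes at both times, with no member lower by the test. *Ppp1r15a* and *Trib3* stood at 2.20- and 2.13-fold of the DMSO level at 3 days and at 2.69- and 2.41-fold at 6 days. *Ddit3* was 1.87-fold higher at 3 days and 1.51-fold higher at 6 days. *Atf4* was 1.52-fold higher at 3 days, while at 6 days its ratio of 1.28 was not past the test. At 3 days 6 of the 10 genes were called higher, where a call means an adjusted p under 0.05 in a test against a change of 1.2-fold (glmTreat in edgeR). The same test called 12.5% of all 13234 genes, 5.3% as higher. At 6 days 7 of 10 were called higher, against 21.6% of all genes called and 10.0% called higher. *Atf5*, *Ddit3*, *Trib3*, *Chac1* and *Ppp1r15a* were called higher at both times, 5 of 10 members, against 3.37% of all tested genes. On counts scaled with TMM factors, the median log2 fold change of the members was 0.56 at 3 days and 0.53 at 6 days. That of all tested genes was 0.00 at each time, which this scaling holds near 0. On log2(TPM + 1) the median of all genes was -0.15 at 3 days and -0.05 at 6 days. On that scale limma called 3 of 10 members higher at each time, against 85 and 376 of 13180 genes.

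**Figure D1:**
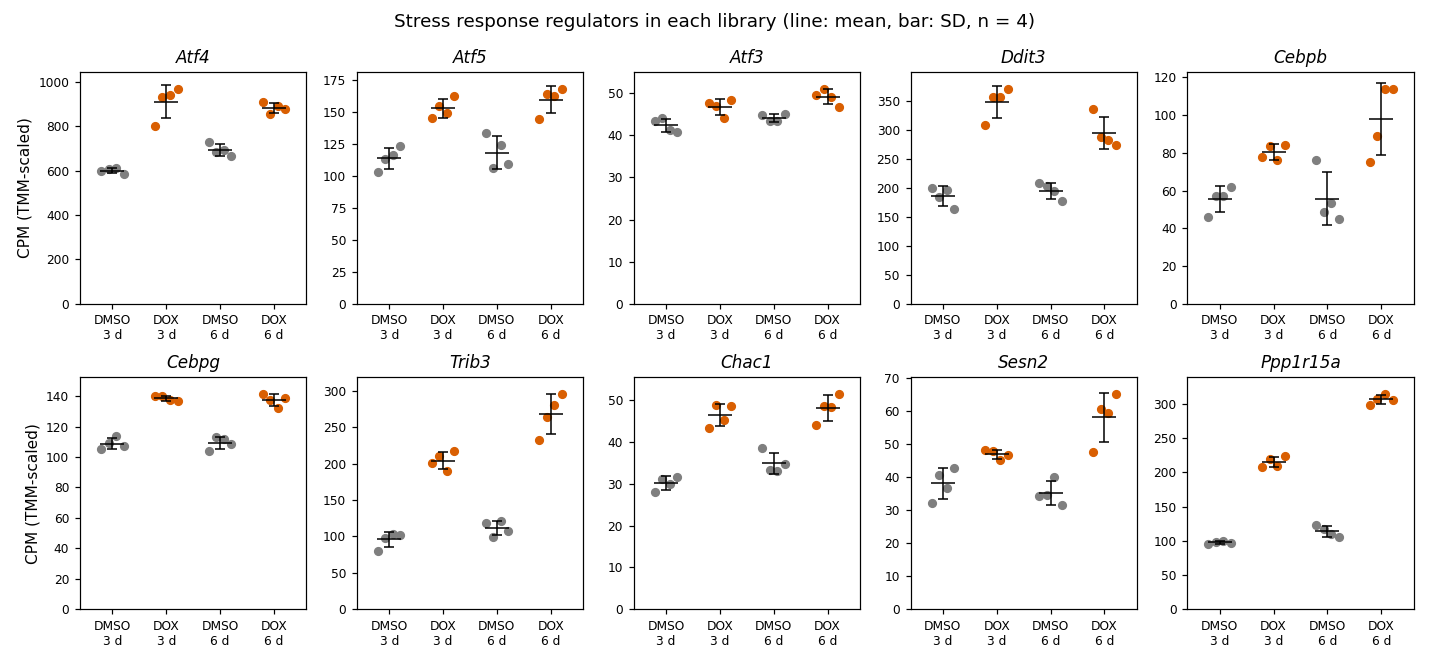
CPM of each gene (counts scaled by library size with TMM factors, y axis from 0) in the 4 libraries of each group on the x axis, with grey points for DMSO, orange points for DOX, a line for the mean and bars for the SD. The DOX points lie above all DMSO points of the same day for 9 of 10 genes at 3 days and for 9 of 10 at 6 days, against 18.8% and 22.1% of all genes, and *Ppp1r15a* and *Trib3* have the largest ratios of DOX to DMSO.

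The libraries held between 16933343 and 23960860 estimated counts, so that a count of 3 corresponds to 0.125 to 0.177 CPM, and the lowest count of any member in any library was 458. Libraries of a group correlated at r of 0.981 to 0.992 over log2 CPM of the tested genes. The renal epithelial markers *Cdh1*, *Epcam*, *Krt8*, *Krt18*, *Cldn4*, *Cldn7*, *Pax2* and *Pax8* were expressed, whereas of 8 collecting duct markers (among them *Aqp2* and *Avpr2*) 1 passed the filter, with a summed level of 3.63 to 5.77 TPM with DMSO and 1.54 to 3.35 TPM with DOX. The summed epithelial markers ranged from 2246 to 2726 TPM in DMSO libraries and from 1655 to 1977 TPM in DOX libraries. Summed markers of fibroblasts and endothelium stayed at or below 1.15 TPM, and 4 leukocyte markers summed to 24.9 to 32.5 TPM with DMSO and to 10.7 to 16.6 TPM with DOX, with *Cd3e* at or under 3 counts. Proximal tubule markers summed to at most 18.7 TPM and those of the thick ascending limb to at most 5.22 TPM. The part of these shifts in the values of the regulators was not tested.

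The basal level was described first, in TPM, the scale that allows genes of different length to be compared. *Atf4*, the central transcription factor, had a mean of 489 ± 53.1 TPM (SD, n = 8) over the DMSO libraries of both days and ranked 269 among all genes. *Ddit3*, which encodes the factor CHOP, had 327 ± 21.2 TPM and ranked 365. The next place was held by *Atf5*, a bZIP factor whose translation is regulated like that of *Atf4*, at 83.0 ± 10.6 TPM. *Trib3*, a pseudokinase that binds ATF4, and *Ppp1r15a* followed at 68.5 ± 11.1 and 68.3 ± 8.99 TPM. *Cebpb* and *Cebpg*, bZIP factors that can pair with ATF4, had 49.5 ± 10.0 and 38.5 ± 4.23 TPM. *Atf3*, a stress-induced bZIP factor, *Chac1*, an enzyme that cleaves glutathione, and *Sesn2*, a sestrin that restrains mTORC1 when leucine is scarce, closed the order at 31.6 ± 2.10, 26.2 ± 3.47 and 12.8 ± 1.89 TPM.

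In that order *Atf4* exceeded *Ddit3*, *Ddit3* exceeded *Atf5*, and *Chac1* exceeded *Sesn2* with no overlap of the 8 DMSO libraries. All other neighbours overlapped in range. *Trib3* and *Ppp1r15a* could not be ranked, since *Trib3* was the higher of them in 4 of 8 libraries. With DOX at 3 days *Trib3* (115 TPM) and *Ppp1r15a* (112 TPM) both stood above *Atf5* (93.7 TPM), and at 6 days *Ppp1r15a* (186 TPM) and *Trib3* (172 TPM) held the places behind *Atf4* and *Ddit3*.

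The 10 genes lie on chromosomes 1, 2, 4, 7, 10 and 15, and each is protein coding in GENCODE release M21 (GRCm38). *Atf4* (ENSMUSG00000042406) spans chr15:80255184-80257541 on the plus strand and overlaps no other annotated gene. *Ddit3* (ENSMUSG00000025408, chr10:127290774-127296288, plus strand) shares 68 exonic bases with *Mars* on the opposite strand. A second *Ddit3* identifier, ENSMUSG00000116429, was listed at 0 in all 16 libraries. *Cebpb* (chr2:167688915-167690418, plus strand) has the longest overlap, 312 exonic bases with *Tmem189* on the other strand, and *Atf5* shares 82 exonic bases with *Nup62* and with *Il4i1*. The library kit marks strand, but no source used here says whether strand was used in counting, so reads in these stretches may be split between the genes. *Trib3* and *Chac1* overlap no other gene.

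Promoter sequence was examined because many ATF4 targets carry a composite C/EBP-ATF element (CARE), to which ATF4 binds with a C/EBP partner, while a CRE is the palindrome recognised by CREB and ATF factors. The RefSeq promoter table (GRCm38.p6) held all 10 genes with 11 promoters, since *Atf5* has 2 starts, and each window runs from 250 bases before to 50 bases after a transcription start. On both strands, CARE was searched as TGATGNAA and CRE as TGACGTCA, which share no full match. CARE was present in 3 of 10 genes, against 4.51% of the 27025 genes and 3.97% of the 32851 promoters of the table. The matches were at -193 to -186 in *Chac1*, at -110 to -103 in *Atf3* and at 14 to 21 in *Trib3*, counted from the start site as base 0. CRE was found in *Ppp1r15a*, at -12 to -5, against 2.03% of all genes and 1.79% of all promoters. The endoplasmic reticulum stress element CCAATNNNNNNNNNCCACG was found in 0 of 10 genes and in 0.137% of genes and 0.119% of promoters. The 250 bases before the start are shown for *Chac1* and *Atf3*, which carry the same CARE letters and differ in their response, and for *Ppp1r15a*, the gene with the largest fold change, with the match in capitals. In *Chac1* and *Atf3* the capitals read as CARE on the other strand.
Chac1, chr2:119350992-119351241, plus strand: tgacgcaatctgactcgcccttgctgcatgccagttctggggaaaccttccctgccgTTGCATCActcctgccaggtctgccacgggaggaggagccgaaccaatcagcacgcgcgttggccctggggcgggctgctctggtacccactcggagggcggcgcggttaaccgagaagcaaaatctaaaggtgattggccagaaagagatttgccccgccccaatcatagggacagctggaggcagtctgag
Atf3, chr1:191183334-191183583, minus strand: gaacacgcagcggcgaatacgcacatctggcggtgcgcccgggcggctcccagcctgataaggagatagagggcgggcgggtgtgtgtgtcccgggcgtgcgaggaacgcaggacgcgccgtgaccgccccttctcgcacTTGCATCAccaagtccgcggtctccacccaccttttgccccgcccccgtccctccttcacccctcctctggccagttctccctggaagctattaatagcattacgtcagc
Ppp1r15a, chr7:45526269-45526518, minus strand: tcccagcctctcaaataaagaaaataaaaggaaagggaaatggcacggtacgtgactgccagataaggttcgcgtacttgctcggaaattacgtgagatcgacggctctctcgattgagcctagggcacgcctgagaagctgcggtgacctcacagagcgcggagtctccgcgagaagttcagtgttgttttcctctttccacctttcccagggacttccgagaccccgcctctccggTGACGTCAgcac

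The factors were compared first. CPM values below are given for replicates 1 to 4 in order. *Atf4* had 601, 610.1, 611 and 584 CPM in DMSO 3D and 802, 933, 942 and 969 CPM in DOX 3D. At 6 days it had 731, 683, 692 and 666 CPM with DMSO and 909.8, 856, 892 and 878 CPM with DOX. No DOX library overlapped the DMSO libraries of its day, and at 3 days replicate 1 was the lowest DOX library. The log2 fold change was 0.60 ± 0.06 (SE, adjusted p = 8.56e-05) at 3 days and was called. At 6 days it was 0.35 ± 0.06 (adjusted p = 0.106) and was not called against the 1.2-fold limit, although the same fit without that limit gave an adjusted p of 9.40e-05. In TPM the libraries did not overlap either, with 403 to 470.2 TPM in DMSO 3D against 579 to 603 TPM in DOX 3D and with 503 to 555 TPM in DMSO 6D against 623 to 669 TPM in DOX 6D.

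*Ddit3* had 200.3, 183, 196 and 163 CPM in DMSO 3D and 308, 357, 356 and 370.1 CPM in DOX 3D. At 6 days the values were 208, 202, 194 and 176 CPM with DMSO and 336, 287, 282 and 274 CPM with DOX. Groups of the same day did not overlap, and DOX 6D replicate 1 was the one DOX library of 6 days that reached the range of DOX 3D. The log2 fold change was 0.90 ± 0.08 (adjusted p = 4.53e-07) at 3 days and 0.60 ± 0.08 (adjusted p = 0.000288) at 6 days, both called. CHOP forms heterodimers with C/EBP factors and is known for its part in cell death after long stress.

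*Atf5* had 103, 113, 116 and 123 CPM in DMSO 3D against 145, 154, 149 and 162 CPM in DOX 3D. At 6 days it had 133, 106, 124 and 109 CPM with DMSO and 145, 164, 162 and 168 CPM with DOX. The groups did not overlap in CPM, whereas in TPM they overlapped at both times. Its log2 fold change was 0.42 ± 0.07 (adjusted p = 0.0382) at 3 days and 0.43 ± 0.07 (adjusted p = 0.0174) at 6 days, close to the limit of a call. The call of 3 days was lost without any one of 6 libraries, with an adjusted p of 0.123, 0.0837 and 0.0524 without DMSO 3D replicates 1, 2 and 3 and of 0.0750, 0.0523 and 0.110 without DOX 3D replicates 2, 3 and 4. That of 6 days was lost without DMSO 6D replicate 2 (0.0772) or replicate 4 (0.0621), and DESeq2 with the same fold limit called *Atf5* at neither time (adjusted p of 0.255 and 0.145), and the length and base composition offset gave an adjusted p of 0.0565 at 6 days.

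*Cebpb* had the largest spread among replicates of the 10 genes in both 6-day groups (a coefficient of variation of 25.0% in DMSO 6D and 19.6% in DOX 6D). It had 46.1, 57.1, 57.2 and 62.1 CPM in DMSO 3D and 77.8, 83.5, 76.2 and 84.2 CPM in DOX 3D. In DMSO 6D it had 76.0, 48.7, 53.6 and 44.8 CPM and in DOX 6D 75.0, 88.7, 114 and 114 CPM. The 6-day groups therefore overlapped in replicate 1, which was the highest DMSO library and the lowest DOX library. The log2 fold change was 0.53 ± 0.16 (adjusted p = 0.128) at 3 days and 0.81 ± 0.16 (adjusted p = 0.00581) at 6 days, the latter called. Fitted to the 8 libraries of one day alone, the 3-day change was called (adjusted p = 0.00712) and the 6-day change was not (adjusted p = 0.0505), and with an offset for gene length and base composition the 3-day change was called too (adjusted p = 0.00572).

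*Cebpg* ranged from 105 to 114 CPM in DMSO 3D, from 137 to 140.2 CPM in DOX 3D, from 104 to 113 CPM in DMSO 6D and from 132 to 141 CPM in DOX 6D. These groups did not overlap, with a log2 fold change of 0.35 ± 0.05 (adjusted p = 0.0767) and 0.33 ± 0.05 (adjusted p = 0.105), neither of them past the test against 1.2-fold. *Atf3* had the smallest fold changes of the 10, with 40.8 to 44.1 CPM in DMSO 3D against 44.1 to 48.4 CPM in DOX 3D and 43.3 to 45.0 CPM in DMSO 6D against 46.8 to 51.0 CPM in DOX 6D, groups that touched at 3 days and were apart at 6 days in CPM. Its log2 fold change of 0.14 ± 0.05 at 3 days and 0.16 ± 0.05 at 6 days was not called (adjusted p = 1.00 at both), and on the TPM scale the direction at 3 days was the opposite, 30.2 ± 1.65 TPM with DMSO and 27.4 ± 3.80 TPM with DOX (SD, n = 4).

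The genes downstream of the factors followed. *Ppp1r15a* had 95.5, 98.7, 100.2 and 97.1 CPM in DMSO 3D and 208, 219, 209.7 and 223 CPM in DOX 3D. In DMSO 6D the values were 123, 118, 109.8 and 105 CPM and in DOX 6D 299, 308, 314 and 306 CPM. Every DOX library of 6 days lay above every DOX library of 3 days, and both lay above all 8 DMSO libraries. The log2 fold change was 1.13 ± 0.05 (adjusted p = 6.02e-11) at 3 days, rank 76 of all tested genes, and 1.43 ± 0.05 (adjusted p = 1.68e-13) at 6 days, rank 90.

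*Trib3* had 80.3, 98.0, 103 and 102 CPM in DMSO 3D and 200.3, 210.2, 189.9 and 217 CPM in DOX 3D. The 6-day DMSO libraries had 118, 99.3, 121 and 107 CPM and the DOX libraries 233, 264, 281 and 295 CPM. As with *Ppp1r15a*, no DOX library of either day overlapped a DMSO library. The log2 fold change was 1.09 ± 0.08 (adjusted p = 5.99e-08) at 3 days and 1.27 ± 0.08 (adjusted p = 1.29e-09) at 6 days.

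*Chac1* had 28.0, 31.1, 30.0 and 31.7 CPM in DMSO 3D and 43.4, 48.8, 45.4 and 48.6 CPM in DOX 3D. At 6 days it had 38.6, 33.4, 33.0 and 34.7 CPM with DMSO and 44.0, 48.6, 48.4 and 51.4 CPM with DOX. The DOX libraries of the 2 days overlapped each other, while the highest DMSO library was replicate 1 of 6 days. Its log2 fold change was 0.62 ± 0.07 (adjusted p = 7.62e-05) at 3 days and 0.46 ± 0.07 (adjusted p = 0.00450) at 6 days. Tested by limma on log2(TPM + 1), neither change was called (adjusted p of 0.404 and 0.505).

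*Sesn2* had 32.2, 40.8, 36.7 and 42.6 CPM in DMSO 3D and 48.1, 47.8, 45.1 and 46.7 CPM in DOX 3D. At 6 days it had 34.4, 34.7, 40.0 and 31.6 CPM with DMSO and 47.6, 60.5, 59.4 and 65.1 CPM with DOX. The groups of a day did not overlap in CPM, and DOX 6D replicate 1 was the lowest of its group, within the range of DOX 3D. Its log2 fold change was 0.30 ± 0.09 (adjusted p = 0.501) at 3 days and 0.73 ± 0.09 (adjusted p = 6.89e-05) at 6 days, so that *Sesn2* was called at 6 days. With the offset for gene length and base composition the 3-day change was 0.50 and was called as well (adjusted p = 0.00467).

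**Figure D2:**
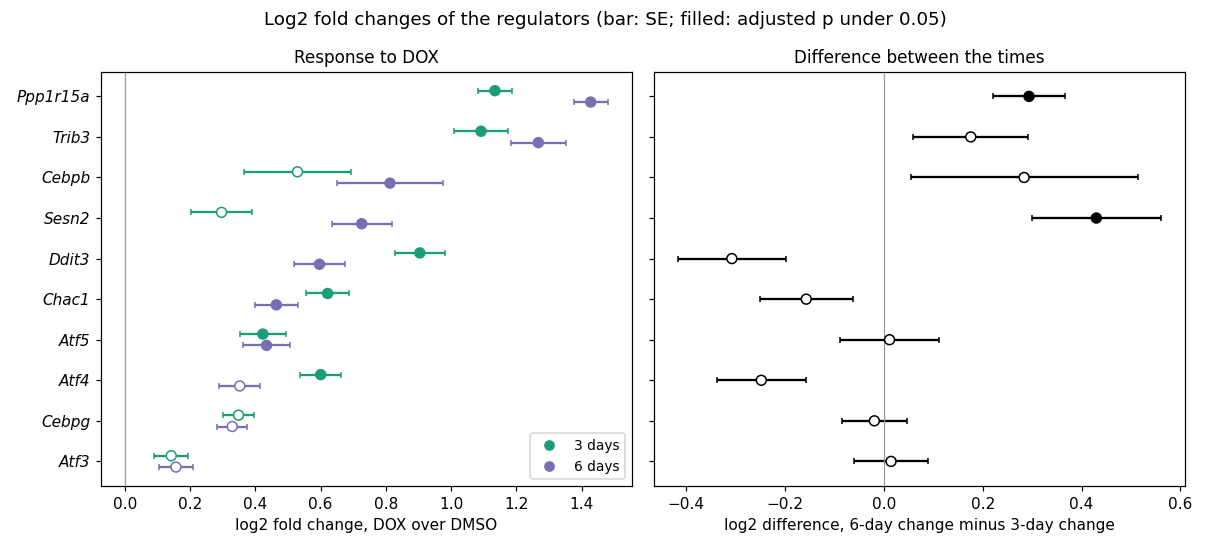
Left, log2 fold change of DOX over DMSO at 3 days (green) and 6 days (purple) for each gene on the y axis; right, the log2 change at 6 days minus that at 3 days. Bars are the SE and filled points have an adjusted p under 0.05; *Ppp1r15a* reaches 1.43 at 6 days, and in the right panel *Sesn2* (0.43) and *Ppp1r15a* (0.29) are filled.

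Whether the response differed between the times was tested as the difference of the log2 fold changes, without a fold limit. *Sesn2* (0.43 ± 0.13, adjusted p = 0.0283) and *Ppp1r15a* (0.29 ± 0.07, adjusted p = 0.0109) had a larger response at 6 days than at 3 days. These are 2 of 10 members called higher, against 17.0% of all genes called, 7.44% higher and 9.58% lower. *Ddit3* and *Atf4* had differences of -0.31 ± 0.11 (adjusted p = 0.0557) and -0.25 ± 0.09 (adjusted p = 0.0597), which were not called. DESeq2 called both (adjusted p of 0.0307 and 0.00660), and so did the offset for length and base composition (0.0392 and 0.00916), which also called *Chac1* (-0.26, 0.0234). Mean *Atf4* at 3 and 6 days was 601 and 693 CPM with DMSO and 911 and 884 CPM with DOX. In TPM its mean with DOX was 590 and 652. Mean *Ddit3* was 186 and 195 CPM with DMSO and 348 and 295 CPM with DOX. *Trib3* (0.18 ± 0.12), *Cebpb* (0.28 ± 0.23) and *Chac1* (-0.16 ± 0.09) were not called in edgeR without an offset, and the differences of *Atf5*, *Atf3* and *Cebpg* were between -0.02 and 0.01.

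Both calls depended on settings. With a limit of 1.2-fold neither was called (adjusted p = 0.349 for *Sesn2* and 0.683 for *Ppp1r15a*), and with offsets fitted to gene length and base composition the differences were 0.19 (adjusted p = 0.183) and 0.16 (adjusted p = 0.110). The *Sesn2* call was lost without DMSO 3D replicate 2 or 4 (adjusted p of 0.0599 and 0.0753), DOX 3D replicate 3 or 4 (0.0599 and 0.0513), DMSO 6D replicate 2 or 4 (0.0556 and 0.0564) or DOX 6D replicate 2, 3 or 4 (0.0568, 0.0553 and 0.0698). That of *Ppp1r15a* held without any one library, at an adjusted p of 0.00289 to 0.0288. *Atf4* was called without DOX 3D replicate 1 (-0.30, adjusted p = 0.00492) or DOX 6D replicate 1 (-0.26, adjusted p = 0.0481), and *Ddit3* without either of these (adjusted p of 0.0106 and 0.0134), DMSO 3D replicate 1 (0.0380) or DMSO 6D replicate 4 (0.0338). Accordingly 4 members were called without DOX 3D replicate 1, against 28.7% of all genes in that fit, and 4 without DOX 6D replicate 1, against 22.6%, and 1 member was called without DMSO 3D replicate 2 or 4, DOX 3D replicate 3 or 4, DMSO 6D replicate 2, or DOX 6D replicate 2, 3 or 4, against 10.4% to 13.9% of all genes.

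In DMSO alone, 6 days were compared with 3 days as the background of time in culture. Against the 1.2-fold limit edgeR called 0 of 10 members and 0.0% of the 13234 genes, and DESeq2 and limma also called 0. In the edgeR test 172 of all genes (1.3%) had an unadjusted p under 0.05, a share that the limit lowers. Without the limit edgeR called 0 members and 62 of all genes. The unadjusted p in that fit was 0.00043 for *Ppp1r15a*, 0.0040 for *Atf4*, 0.0062 for *Chac1* and 0.017 for *Trib3*. For the other members it was 0.216 or more. The members ranged from -0.12 (*Sesn2*) to 0.22 (*Ppp1r15a* and *Trib3*) on the log2 scale. *Atf4*, *Chac1* and *Ppp1r15a* had 6-day DMSO libraries that were all above the 3-day ones in CPM, 3 of 10 members against 6.85% of all genes. These shifts were 0.20 for *Atf4*, 0.21 for *Chac1* and 0.22 for *Ppp1r15a*, beside DOX changes at 6 days of 0.35, 0.46 and 1.43.

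Several genes often shared the lowest or highest library of a group. Replicate 1 of DMSO 3D was the lowest of its group for 7 of 10 members, and replicate 1 of DMSO 6D was the highest for 6. DOX 6D replicate 1 was the lowest of its group for *Atf5*, *Cebpb*, *Trib3*, *Chac1*, *Sesn2* and *Ppp1r15a* and the highest for *Atf4*, *Ddit3* and *Cebpg*. DOX 3D replicate 4 was the highest for 7 members. The lowest and highest libraries were not counted over all genes, so a shift of a whole library cannot be told from a trait of the members. Without single libraries, 5 to 6 members were called at 3 days, with 1366 to 2297 of all genes. At 6 days 6 to 7 members were called, with 2537 to 3057 of all genes.

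The values were also compared between the CPM and TPM scales. In CPM, 9 of 10 members had DOX libraries that were all above the DMSO libraries at 3 days, against 18.8% of all genes, and 9 of 10 at 6 days, against 22.1%. In TPM, the same was true of 5 of 10 members at 3 days, against 5.99% of genes, and of 7 of 10 at 6 days, against 11.9%. On log2(TPM + 1) the median change of all genes was -0.15 at 3 days and -0.05 at 6 days, and each member ratio at 3 days was lower in TPM than in CPM. Tested on this scale by limma, *Ddit3*, *Trib3* and *Ppp1r15a* were called higher, 3 of 10 members at each time, and of all genes 85 were called higher and 616 lower at 3 days, compared with 702 and 956 on counts. At 6 days 376 were called higher and 931 lower on this scale, compared with 1326 and 1530 on counts. On this scale *Atf4* at 3 days had a log2 fold change of 0.41 (adjusted p = 0.0781). At 6 days *Cebpb* (0.75, adjusted p = 0.0654) and *Sesn2* (0.62, adjusted p = 0.0748) lost their calls with changes about as large as on counts. *Chac1* and *Atf5* lost their calls at both times, further from the limit. *Chac1* had 0.42 at 3 days (adjusted p = 0.404) and 0.39 at 6 days (adjusted p = 0.505). *Atf5* had 0.23 at 3 days and 0.37 at 6 days, the latter with an adjusted p of 0.692.

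**Figure D3:**
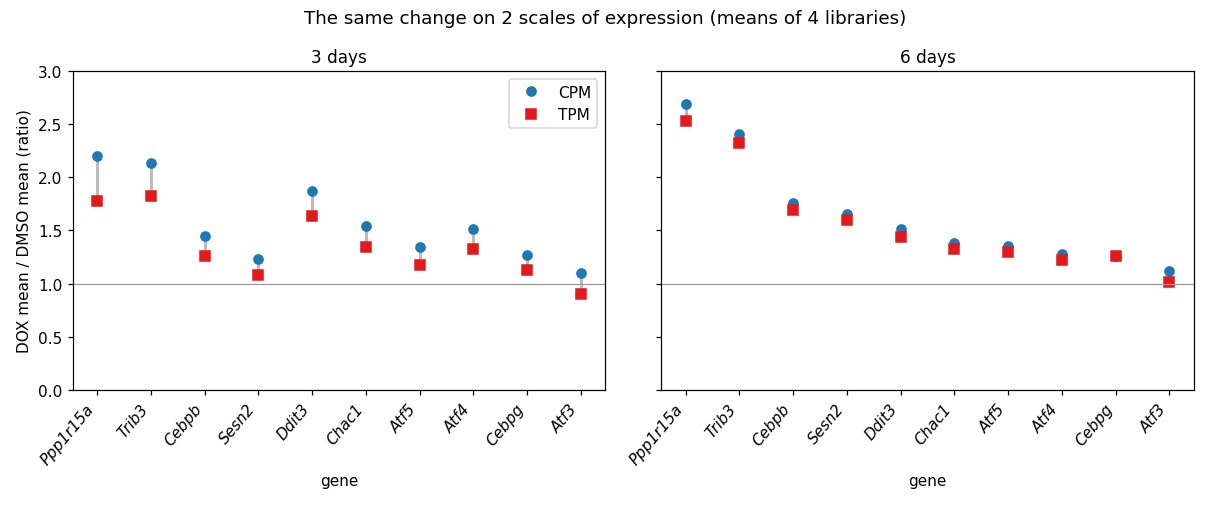
Ratio of the DOX mean to the DMSO mean (4 libraries each, y axis from 0) for each gene on the x axis, in CPM (blue circles) and in TPM (red squares), at 3 days on the left and 6 days on the right. At 3 days every square lies below its circle, as for *Ppp1r15a* (1.78 in TPM and 2.20 in CPM), and that of *Atf3* (0.907) lies below 1.

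Genes upstream and around the regulators were then counted from lists of the pathway, which were chosen with earlier results of these data known. In these counts rose and fell mean called higher and called lower. Of 7 genes for the eIF2α kinases and their upstream factors (*Eif2ak1* to *Eif2ak4*, *Gcn1l1*, *Oma1* and *Dele1*), 1 fell at each time, *Eif2ak3*, which encodes the endoplasmic reticulum kinase PERK (log2 fold change of -0.51 ± 0.09 at 3 days, adjusted p = 0.0173, and -0.79 ± 0.10 at 6 days, adjusted p = 2.62e-05). In all tested genes 5.3% were called higher and 7.22% lower at 3 days, and 10.0% and 11.6% at 6 days. Of 12 genes for eIF2, its exchange factor eIF2B and the phosphatase, *Eif2s2* (0.53 ± 0.10) and *Eif2b3* (0.54 ± 0.07) rose at 3 days and *Eif2b3* (0.56 ± 0.07) at 6 days. *Ppp1r15b*, the constitutive counterpart of *Ppp1r15a*, had -0.23 at 3 days and -0.08 at 6 days and was not called.

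Of 22 tested bZIP partners, 1 rose and 4 fell at 3 days, and 5 rose and 4 fell at 6 days. The shares of all genes were 5.3% higher and 7.22% lower at 3 days and 10.0% and 11.6% at 6 days. The AP-1 genes *Jun* (-0.84 ± 0.09 at 3 days, -1.26 ± 0.09 at 6 days) and *Fos* (-0.85 ± 0.12 and -0.97 ± 0.12) fell, whereas *Atf6* (0.45 ± 0.06 and 0.91 ± 0.06), the membrane-bound factor of another arm of the unfolded protein response, rose at both times. *Cebpd* (0.94 ± 0.12) rose at 6 days.

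Known targets of ATF4 were counted in 4 lists, in none of which a gene was called lower. Of all tested genes 5.3% were called higher at 3 days and 10.0% at 6 days. Of 14 amino acid and one-carbon enzymes, 10 rose at 3 days and 12 at 6 days, led by *Cth* (1.49 ± 0.07 and 1.41 ± 0.07), the cystathionine lyase that makes cysteine, with *Pycr1* of proline synthesis (1.13 ± 0.07 and 0.87 ± 0.06) and *Aldh18a1* of the same pathway (0.75 ± 0.06 and 0.95 ± 0.06). Of 8 amino acid transporters, 5 rose at 3 days and 7 at 6 days, among them the cystine carrier *Slc7a11* (1.24 ± 0.10 and 1.59 ± 0.10), the glycine carrier *Slc6a9* (0.90 ± 0.09 and 1.39 ± 0.09) and the glutamine carrier *Slc1a5* (0.73 ± 0.08 and 1.39 ± 0.08). The median of this list was 0.63 at 3 days and 1.09 at 6 days. Of 13 genes for cytosolic tRNA synthetases and the tRNA exporter *Xpot*, 10 rose at 3 days and 8 at 6 days, among them *Eprs* (0.74 ± 0.06 and 0.99 ± 0.06) and *Wars* (0.66 ± 0.06 and 0.87 ± 0.06). Of 14 other effectors, 3 rose at 3 days and 5 at 6 days, including the secreted factors *Stc2* (0.63 ± 0.10 and 1.35 ± 0.10) and *Fgf21* (0.66 ± 0.18, with an adjusted p of 0.0410, and 0.83 ± 0.17). *Fgf21* was low, with means at 3 and 6 days of 1.69 and 1.70 CPM with DMSO and 2.69 and 3.05 CPM with DOX, near the filter of 1 CPM. *Ddit4* (0.19 and -0.08) and *Herpud1* (0.13 and 0.21) of this list were not called.

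The unfolded protein response outside the ATF4 arm, the chaperones and degradation factors run by ATF6 and XBP1, formed a separate list. Of 16 genes, none rose and 6 fell at 3 days, and 2 rose and 5 fell at 6 days, with a list median of -0.26 and -0.19. The calcium-binding chaperone *Calr* fell at both times (-0.82 ± 0.05 and -0.54 ± 0.05), as did *Hsp90b1* (-0.64 ± 0.06 and -0.46 ± 0.06), and *Sdf2l1* fell at 6 days (-0.49 ± 0.09). *Ern1*, which encodes the sensor IRE1α (0.76 ± 0.08), and *Sel1l*, a part of the degradation machinery (0.43 ± 0.06), rose at 6 days. Of 8 mitochondrial chaperones and proteases, 6 rose at 3 days and 5 at 6 days with none lower, among them *Hspa9* (0.67 ± 0.06 and 0.88 ± 0.06), *Hspe1* (0.60 ± 0.10 at 3 days) and the protease *Lonp1* (0.54 ± 0.05 and 0.71 ± 0.05). Over all lists, 37 of 114 tested genes were called higher and 11 lower at 3 days, and 45 and 10 at 6 days. Of all tested genes 5.3% were called higher and 7.22% lower at 3 days, and 10.0% and 11.6% at 6 days. With limma on log2(TPM + 1) the same lists held 8 genes called higher and 9 lower at 3 days and 28 and 9 at 6 days, and on log2(TPM + 0.1) 9 and 11 at 3 days and 29 and 10 at 6 days. Of all 13180 genes tested on log2(TPM + 1), 85 were called higher and 616 lower at 3 days, and 376 and 931 at 6 days. On log2(TPM + 0.1) these were 104 and 805 at 3 days and 448 and 1079 at 6 days.

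**Figure D4:**
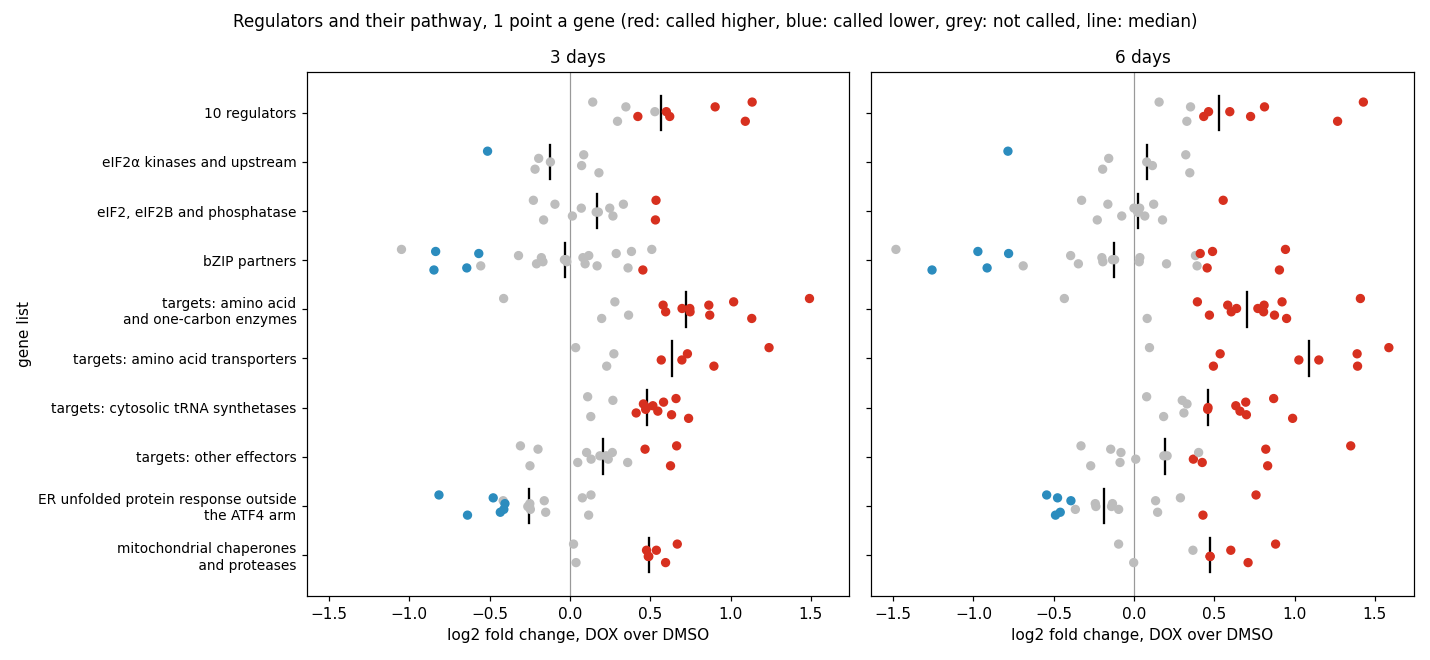
Log2 fold change of DOX over DMSO (x axis) for each tested gene of the regulators and of 9 pathway lists (y axis), at 3 days on the left and 6 days on the right, in red where called higher, blue where called lower and grey where not called, with a black line at the list's median. The regulators (medians 0.56 and 0.53) and the ATF4 target lists of enzymes, transporters and synthetases lie to the right of 0, and the endoplasmic reticulum list (-0.26 and -0.19) to the left.

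The genes with the most similar pattern over the 16 libraries were found by the root mean square distance of log2 CPM, each gene centred on its own mean, among 13224 other tested genes. Nearest to *Atf4* were *Adh5* (0.0597), *Hax1* (0.0614) and *Lyar* (0.0614), and of the other members *Chac1* came closest (0.0912, rank 51 of all). Nearest to *Atf5* were *Akt1s1* (0.0680), *Pus1* (0.0681) and *Tdp1* (0.0699), with *Chac1* as the closest member (0.0990, rank 37). For *Ddit3* they were *Thyn1* (0.110), *Isg15* (0.117) and *Smim19* (0.118), and *Atf4* was the closest member (0.177, rank 77). *Ppp1r15a*, which rose most, was at 0.452 from *Atf4*, 0.465 from *Atf5* and 0.392 from *Ddit3*. The profiles were not scaled, so a difference in the size of a change alone raises this distance, whatever its shape.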

How the data were processed

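Polarized mIMCD3 cells were profiled by poly(A) RNA-Seq (paired reads of 75 bases). Per the labels, the authors aligned reads to GRCm38.p6 with STAR 2.6.0c, and the submitters' processing notes name Salmon. The deposited gene table holds estimated counts made by the authors, of which 20.1% were not whole and were rounded here. A second deposited table holds TPM from the authors, lacking 1039 of the 54393 genes. Groups came from the labels. The filter on low counts asked for 1 CPM or more in 4 libraries or more, which 13234 genes passed. Counts were scaled by TMM and fitted over all 16 libraries in edgeR 4.0.16 (R 4.3.3) by robust quasi-likelihood, with glmTreat at a 1.2-fold limit for each comparison and no limit for the difference between times. P-values were adjusted by Benjamini-Hochberg over all tested genes, at 0.05. Alternatives used RLE scaling, DESeq2 1.42.0, limma 3.58.1 on log2(TPM + 1) and log2(TPM + 0.1), other filters and thresholds, a replicate block, length and GC offsets, and single libraries left out. The scripts were tested on simulated counts. The members and lists were chosen with earlier results of these data known. Within each list, the genes named were the most changed among those called, and likeness was measured for *Atf4*, *Atf5* and *Ddit3*; *Ppp1r15b*, *Ddit4* and *Herpud1* were named after their values were seen. Intervals from counts of 3 cover counting error only.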

Additional observations from a re-analysis of the deposited data

Results flagged for a closer look

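The response to DOX differed between the times for *Sesn2*, by 0.43 ± 0.13 on the log2 scale (edgeR, adjusted p = 0.0283), and for *Ppp1r15a*, by 0.29 ± 0.07 (adjusted p = 0.0109), both larger at 6 days. These were 2 of 10 members, against 17.0% of all genes called. Neither call held with a 1.2-fold limit or with the length and GC offset. The *Sesn2* call was also lost in 9 of 16 fits that left out a single library. Among 40 sets of 4 libraries, 1 for each gene and group, 0 held a library beyond Dixon's limit for a set of 4, where chance gives about 1 in 20.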

How the results depend on the processing

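The counts of calls at 3 days, at 6 days, for DMSO over time and for the difference between times were 6, 7, 0 and 2 of the 10 members, 48, 55, 0 and 28 of the 114 pathway genes, and 1658, 2856, 0 and 2252 of all genes. DESeq2 called 1019 genes at 3 days and 4 members for the difference. With limma on log2(TPM + 1), 3 members were called at 3 days, 3 at 6 days and 1 for the difference, with 17 pathway genes at 3 days and 12 for the difference, and 701, 1307 and 659 genes in all. With log2(TPM + 0.1) the counts were 3, 3 and 1 members, 20 and 11 pathway genes, and 909, 1527 and 631 genes. With log2(TPM + 1) and no filter they were 3, 3 and 0 members, 11, 29 and 0 pathway genes, and 430, 963 and 232 genes. Without a fold limit, the 3-day calls were 10 members, 83 pathway genes and 5982 genes, those of 6 days 87 pathway genes and 6702 genes, and those for DMSO over time 3 and 62. A 1.2-fold limit on the difference left 0 members, 4 pathway genes and 183 genes. With no filter on low counts, 6 genes were called for DMSO over time.

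Directions changed for some small values. *Atf3* at 3 days was 0.14 on counts, -0.14 on log2(TPM + 1) with or without the filter, and -0.15 on log2(TPM + 0.1). On counts this rise was called by edgeR without the fold limit (adjusted p = 0.0339), so the scales disagreed for *Atf3*. For DMSO over time, *Cebpb* was -0.0019 on counts, 0.039 on log2(TPM + 1) with or without the filter, 0.040 on log2(TPM + 0.1), 0.00063 with DESeq2, 0.0017 with no filter, 0.0043 with the replicate block, and 0.063 and 0.066 with the length and GC offset without and with the block. *Cebpg* was -0.019 on each TPM scale, and -0.023 and -0.024 with the offset without and with the block. For the difference, *Cebpg* was 0.15 on each TPM scale, 0.021 with no filter and 0.042 with either offset, and with either offset *Atf5* was -0.13 and *Atf3* -0.024. The cause was not tested.

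Leaving out single libraries gave 5 to 6, 6 to 7, 0 to 0 and 1 to 4 members, 43 to 50, 51 to 58, 0 to 0 and 15 to 44 pathway genes, and 1366 to 2297, 2537 to 3057, 0 to 0 and 1370 to 3788 genes. For DMSO over time *Atf5* then ranged from -0.010 to 0.10, *Cebpb* from -0.19 to 0.089 and *Cebpg* from -0.0087 to 0.031, and for the difference *Atf5* ranged from -0.038 to 0.074 and *Atf3* from -0.013 to 0.037.

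Deviations of same-numbered libraries from their group means correlated at -0.43 to 0.18. These values cannot show whether same-numbered libraries were handled together, so pairing stays unknown. With the replicate block 5, 7, 0 and 2 members were called, with 1570, 2767, 0 and 1768 genes in all, and *Atf5* at 3 days had an adjusted p of 0.0515. With the length and GC offset, *Cebpb* and *Sesn2* were called at 3 days and *Cebpg* at 6 days, the last not when the block was added, *Atf5* at 6 days was not, and for the difference *Atf4*, *Ddit3* and *Chac1* were called lower.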
